A study of Mus musculus with 12 samples.

Results

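The genes examined here are 7 transcription factors of the circadian clock: Clock, Arntl (which encodes BMAL1), Npas2, Nr1d1 (REV-ERBα), Nr1d2 (REV-ERBβ), Rora and Nfil3. Every probe set that the array platform's gene table assigns to exactly 1 of these symbols was taken and analysed separately. The 7 genes, of 18193 with such a probe set, had 21 probe sets among 45037 without array controls: 9 for Rora, 4 for Clock, 2 each for Arntl, Npas2 and Nr1d2, and 1 each for Nfil3 and Nr1d1. Of the 21, 19 passed a filter on dim signal and were tested among 28344 probe sets. The remaining pair, Npas2 1421037_at and Rora 1441085_at, are given as levels only.

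Livers came from male mice aged 6 to 12 weeks, collected at ZT14, that is 14 h after lights on in a cycle of 12 h light and 12 h dark. There were 4 groups of 3 mice: wild type on the normal diet, and, given bezafibrate, a fibrate drug that activates PPARα, at 0.5% (w/w) of the diet for 5 days, wild-type mice, PPARalpha-null mice and Clk/Clk mutants. Wild-type and Clk/Clk mice had the Jcl:ICR background, and the null mice came from crossing 129S4SvJae-PPARalphatm1Gonz/J with Jcl:ICR. Each array received cRNA made from 250 ng of total RNA, and values are log2 expression after RMA. No untreated null or untreated Clk/Clk mice were analysed, so a mutant's genotype and its response to the drug cannot be told apart, and the null group also differs in strain. Livers were taken at a single time of day, so a change of level and a shift of phase cannot be told apart either. All mouse numbers are those of the labels.

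CLOCK, or its paralog NPAS2, pairs with BMAL1, and the pair binds E-box sequences to drive Per, Cry, Nr1d1, Nr1d2 and Dbp. The REV-ERB proteins repress, and the ROR proteins activate, genes with RORE sequences, which include Arntl, Npas2, Clock and Nfil3. NFIL3 in turn represses D-box genes that DBP and its relatives activate. In mouse liver this second loop makes Arntl and Npas2 oscillate in antiphase to the REV-ERB genes. The Clk allele carries a splice mutation that removes part of CLOCK's activation region, so a transcript is still made. No source used here gives where the Clock probe sets lie relative to that mutation, so the Clock values below do not check the genotype.

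Arrays of a group correlated at 0.993 to 0.996 over all probe sets without controls, and arrays of different groups at 0.969 to 0.99. No array stood apart. The level of 8 tested hepatocyte markers, averaged on the log2 scale in each mouse, was 14.18 to 14.21 in untreated and 13.84 to 13.92 in treated wild type, 14.08 to 14.12 in null and 13.97 to 14.01 in Clk/Clk mice. Alb and Apoa1, near the top of the scale, had group means of 14.82 to 14.86 and 14.56 to 14.64, and neither was called.

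Lists of cell type markers were read on the brightest tested probe set of each gene. Over all 13598 genes read so, 20.6% were called for the drug, 13.4% for null and 9.12% for Clk/Clk against treated wild type. Marker counts near these shares say nothing particular about a cell type. Of the 8 hepatocyte markers, 2 fell with bezafibrate in wild type: Ahsg, a secreted plasma protein gene (-0.82, adjusted p = 3.47e-05), and Hnf4a, a hepatocyte transcription factor (-0.69, adjusted p = 9.11e-05). Fgb (-0.51, adjusted p = 1.82e-04) and Apob (-0.42, adjusted p = 5.86e-04) had adjusted p under 0.05 but missed the fold minimum. Ahsg was also the single hepatocyte marker called in null mice, 0.61 above treated wild type (adjusted p = 5.71e-04). These markers were named after their values were seen. With the drug 3 of 10 endothelial markers fell, and their mean per mouse was 8.69 to 8.73 untreated and 8.30 to 8.60 treated; 1 was higher in each mutant. Of 12 macrophage markers 1 rose with the drug, 3 were lower in null and 2 in Clk/Clk mice, with means of 8.28 to 8.86 in treated wild type and 7.95 to 8.22 in Clk/Clk. Of 10 stellate markers 2 fell with the drug, 1 was lower in null and 2 in Clk/Clk mice. Of 6 cholangiocyte markers 3 were tested, with 1 rise with the drug and 1 lower in null mice. Of 12 lymphocyte and blood markers 7 were tested. Of these 1 fell with the drug, 1 was higher and 1 lower in null mice, and 2 were lower in Clk/Clk mice, whose means were 6.19 to 6.25 against 6.38 to 7.24 in treated wild type. Log2 values have no zero, and Krt7, Cftr, Cd3g and Hba-a1 lay under the filter. The part of these cell types in the results below was not tested. In bulk liver, fewer cells of a type and less RNA per cell cannot be told apart.

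A probe set is called when its limma adjusted p over all tested probe sets is under 0.05 and its difference is at least 1.5-fold. Bezafibrate in wild type gave 5 calls among the 19 (26.3%), all lower, where 19.3% of all tested probe sets were called, 11.2% higher and 8.14% lower. PPARalpha-null against wild type on the drug gave 2 calls (10.5%), both higher, against a background of 12.4% (4.99% higher, 7.42% lower). Counted in either direction, these shares are near their backgrounds. The 5 drug calls, all lower where 8.14% of all were, came from 3 genes. For the drug the median difference of the 19 was -0.229, beside -0.0201 over all tested probe sets. The median absolute difference was 0.393, beside 0.25. Whether the genes moved as a set was not tested. Clk/Clk against wild type on the drug gave 6 calls (31.6%), 5 higher and 1 lower, against 8.6% (2.61% higher, 5.99% lower). Among the higher calls, 1418659_at, 1418660_at and 1435775_at are probe sets of Clock, the gene mutated in these mice. In the Clk/Clk comparison the median absolute difference of the 19 was 0.34 on the log2 scale, beside 0.168 over all tested probe sets. Probe sets of 1 gene are not independent of each other, and, as given below, those of Arntl and of Rora gave unlike differences. All these comparisons use the same treated wild-type arrays, so an odd value in that group enters each of them.

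**Figure D1:**
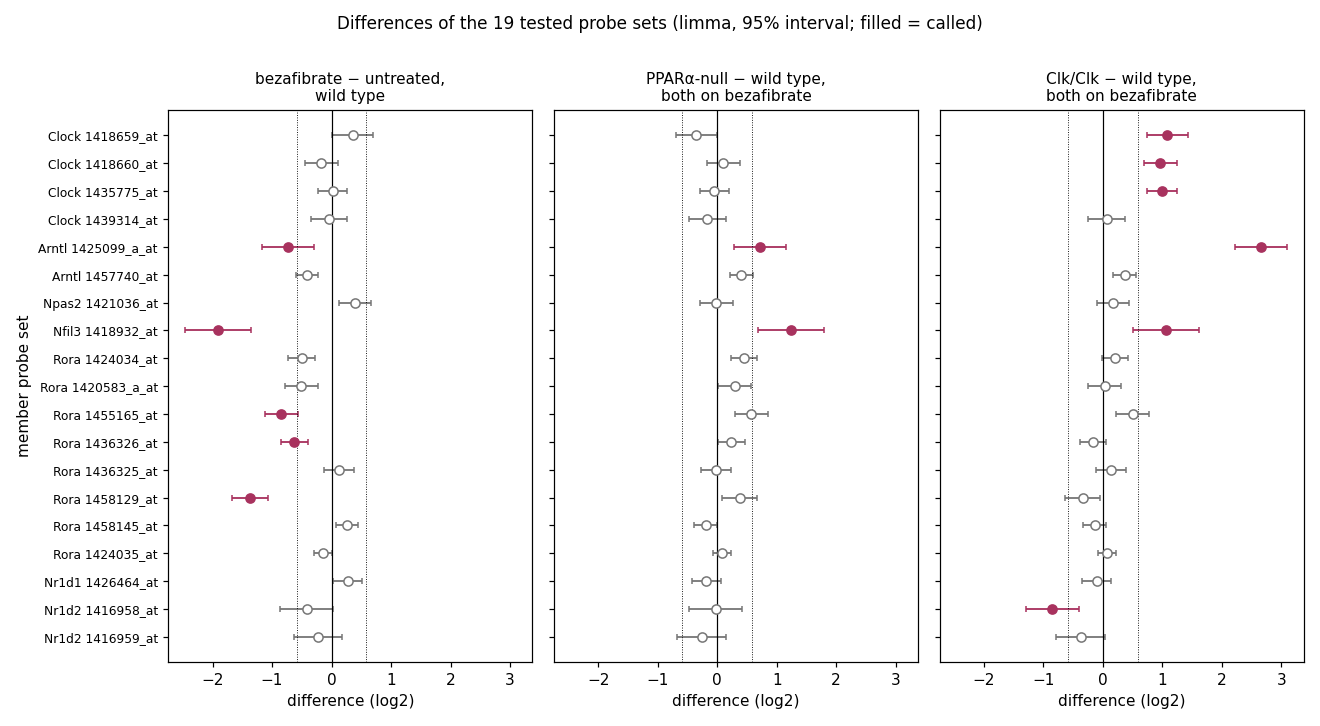
Difference on the log2 scale (x axis, point and 95% interval from limma) for each of the 19 tested probe sets (y axis) in 3 comparisons. Filled points are called, dotted lines mark a 1.5-fold difference; the called points lie at or below -0.62 in the left panel, and Arntl 1425099_a_at stands farthest out in the right panel at 2.66.

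Clock signal was higher in Clk/Clk livers on 3 of its 4 probe sets, and no difference among the other groups was called. Clock 1418659_at read 9.37, 9.32 and 9.07 in Clk/Clk mice, against 7.99, 8.02 and 8.49 in treated wild type, 7.59, 7.93 and 7.94 in null mice and 7.89, 7.57 and 7.97 in untreated wild type. The Clk/Clk mice were above all others, with no overlap. The difference from treated wild type was 1.08 in log2 units, or 2.12-fold (SE 0.159, adjusted p = 8.24e-04).

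Clock 1418660_at read 8.49, 8.57 and 8.34 in Clk/Clk mice and 7.25, 7.51 and 7.76 in treated wild type. It was 0.96 higher (SE 0.126, adjusted p = 4.48e-04). Clock 1435775_at, at 8.36, 8.40 and 8.12 against 7.19, 7.22 and 7.49, was 0.99 higher (SE 0.112, 1.99-fold, adjusted p = 1.83e-04). The 3 brighter Clock probe sets thus gave differences close to each other, and the null and untreated mice lay in the range of 7.09 to 7.80 on the latter pair. The dimmest, Clock 1439314_at, did not separate the groups: it read 5.82, 5.84 and 5.27 in Clk/Clk mice and 5.43, 5.62 and 5.69 in treated wild type, a difference of 0.07 with a 95% interval of -0.24 to 0.38.

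The drug and null comparisons gave small Clock differences. For bezafibrate in wild type the 4 differences were 0.36, -0.17, 0.02 and -0.04, and for null against treated wild type -0.35, 0.10, -0.05 and -0.16, from the brightest to the dimmest. The largest of these, on 1418659_at, had adjusted p = 0.088 and 0.117. Treated wild-type mouse 3 was the highest of its group on all 4 probe sets. Against untreated wild type, Clk/Clk Clock signal was higher by 1.44, 0.79 and 1.01 on the 3 brighter probe sets.

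Npas2, CLOCK's paralog, was dim in all groups. Npas2 1421036_at read 4.44, 4.72 and 4.31 in untreated wild type, where it lay under the filter level of 4.87 to 4.92. It read 5.01, 4.83 and 4.80 in treated wild type, 4.86, 5.02 and 4.73 in null and 5.21, 4.86 and 5.08 in Clk/Clk mice. Untreated mice were the lowest, with no overlap with any treated group, and the treated groups overlapped each other. The drug difference in wild type was 0.39 (SE 0.125, adjusted p = 0.023) and missed the fold minimum. The probe set passed the filter only through the treated groups, where it was higher. Its drug difference and its lack of overlap with untreated mice therefore support nothing. From treated wild type the null mean differed by -0.01 (95% interval -0.29 to 0.26) and the Clk/Clk mean by 0.17 (-0.10 to 0.44). The second probe set, Npas2 1421037_at, ran from 3.48 to 4.26 over the 12 mice and was not tested. All its values lay under the filter level. Its means were 3.777 in untreated and 3.545 in treated wild type, 3.736 in null and 4.01 in Clk/Clk mice (SD 0.276, n = 3). Unlike on 1421036_at, the treated wild-type mean was below the untreated mean, and the Clk/Clk and untreated ranges overlapped.

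Arntl, the partner of CLOCK and NPAS2, had the largest difference of the 7 genes. Arntl 1425099_a_at read 7.94, 8.32 and 7.33 in Clk/Clk mice and 5.32, 4.91 and 5.39 in treated wild type. Null mice were at 5.98, 5.89 and 5.92 and untreated wild type at 5.89, 5.94 and 5.97. Treated wild type was the lowest group, untreated wild type and null mice overlapped, and Clk/Clk mice were the highest, with Clk/Clk mouse 3 the lowest of them.

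The Clk/Clk excess over treated wild type on this probe set was 2.66 (SE 0.199, 6.31-fold, adjusted p = 1.58e-05). It was 1.94 over null and 1.93 over untreated wild type, 3.80-fold in the latter case (adjusted p = 1.29e-05). The bezafibrate difference of Arntl 1425099_a_at in wild type was -0.73 (SE 0.199, adjusted p = 0.0107), and null mice were 0.72 above treated wild type (adjusted p = 0.0174). Removing treated wild-type mouse 2, the lowest of its group, ended both the drug call and the null call, with differences of -0.58 and 0.57, and the null call also without null mouse 1 (0.70). Treated null and untreated wild-type means differed by -0.01, with a 95% interval of -0.45 to 0.43.

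The other probe set, Arntl 1457740_at, showed the drug and null differences but only a small excess in Clk/Clk mice. It read 5.38, 5.44 and 5.42 in treated wild type, below all other mice. Untreated wild type was at 5.86, 5.78 and 5.84, null at 5.73, 5.92 and 5.80 and Clk/Clk at 5.91, 5.82 and 5.59. The differences were -0.41 for the drug (adjusted p = 0.00235), 0.41 for null (adjusted p = 0.00443) and 0.36 for Clk/Clk (adjusted p = 0.012), and none reached 1.5-fold. Here Clk/Clk and untreated wild type overlapped and differed by -0.05 (95% interval -0.24 to 0.14). The 2 Arntl probe sets therefore disagree on the size of the Clk/Clk difference, and no source used here gives which transcripts each reads.

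Nfil3, the RORE-driven repressor of D-box genes, had the largest drug difference. Nfil3 1418932_at read 9.11, 8.95 and 9.25 in untreated wild type and 7.20, 6.71 and 7.67 in treated wild type. It read 7.86, 8.81 and 8.63 in null and 8.07, 8.33 and 8.35 in Clk/Clk mice. Untreated mice were above all treated mice, and both mutants were above treated wild type with no overlap.

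The bezafibrate difference of Nfil3 in wild type was -1.91 (SE 0.254, 3.75-fold, adjusted p = 9.56e-05). Treated null mice were 1.24 above treated wild type (SE 0.254, adjusted p = 0.00338) and Clk/Clk mice 1.06 above it (adjusted p = 0.0122). The mutants differed from each other by -0.18, Clk/Clk minus null, with a 95% interval of -0.74 to 0.37. Against untreated wild type the differences were -0.67 in null (adjusted p = 0.087, not called) and -0.85 in Clk/Clk (adjusted p = 0.0173, called).

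**Figure D2:**
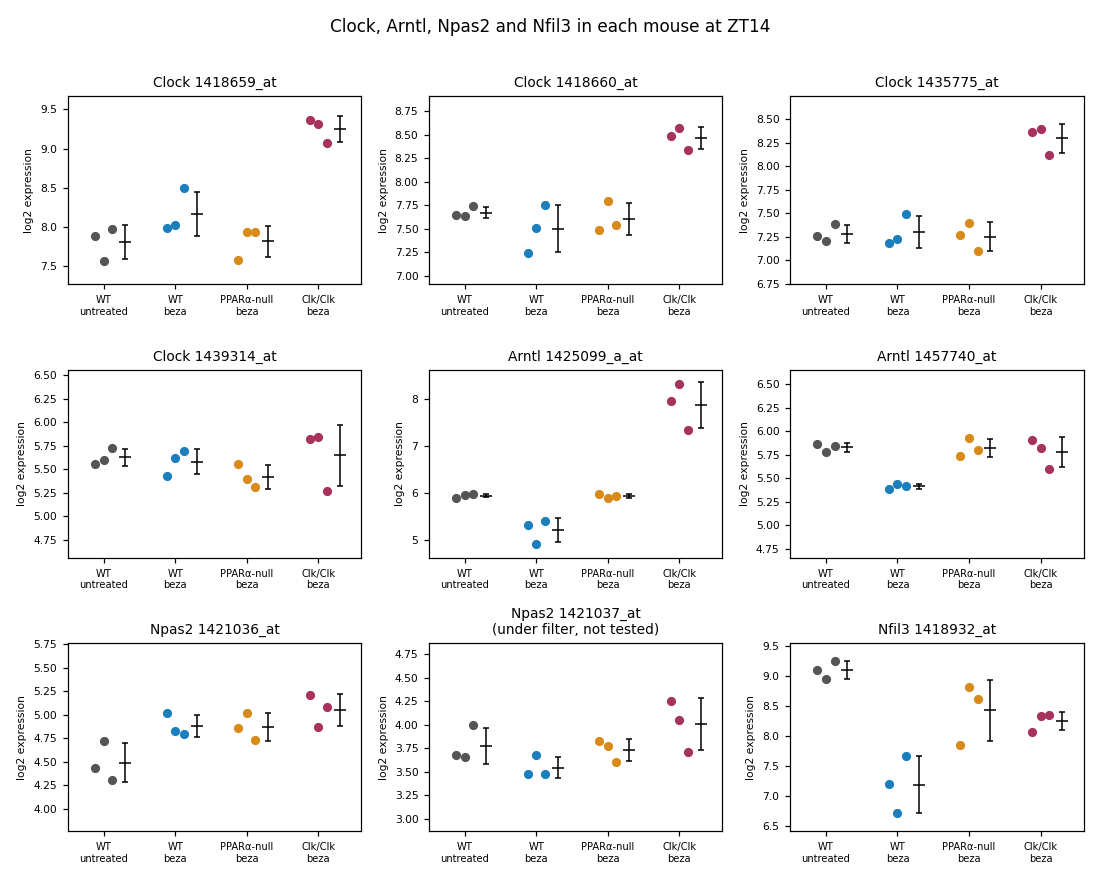
Log2 expression (y axis, a scale of its own in each panel) of each mouse in the 4 groups (x axis) for the probe sets of Clock, Arntl, Npas2 and Nfil3; bars give mean and SD, n = 3. The Clk/Clk mice lie above all others on 3 Clock panels and on Arntl 1425099_a_at, and the treated wild-type mice lie lowest on both Arntl panels and on Nfil3.

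Arntl 1425099_a_at and Nfil3 were both called lower with the drug, and higher in each mutant than in treated wild type. Their start-site windows are therefore shown. The other Arntl probe set, 1457740_at, was called in none of these comparisons. RefSeq's table (build GRCm38.p6) gives 10 windows for the 7 genes, each from 250 bases before an annotated start to 50 after it. The windows were searched on both strands for TAGGTCA, the core of the classical RORE, for the variant TAGGTTA, and for AGGTCA, which TAGGTCA contains. Capitals mark matches, and TGACCTA is TAGGTCA read on the opposite strand. The Arntl window is chr7:113207261-113207560, plus strand, and the Nfil3 window chr13:52980990-52981289, minus strand.
Arntl: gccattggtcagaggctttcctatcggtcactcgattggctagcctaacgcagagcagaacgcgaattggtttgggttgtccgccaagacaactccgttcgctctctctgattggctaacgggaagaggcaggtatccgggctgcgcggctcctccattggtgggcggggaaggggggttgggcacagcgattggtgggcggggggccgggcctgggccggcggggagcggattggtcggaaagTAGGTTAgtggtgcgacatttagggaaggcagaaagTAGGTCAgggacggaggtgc
Nfil3: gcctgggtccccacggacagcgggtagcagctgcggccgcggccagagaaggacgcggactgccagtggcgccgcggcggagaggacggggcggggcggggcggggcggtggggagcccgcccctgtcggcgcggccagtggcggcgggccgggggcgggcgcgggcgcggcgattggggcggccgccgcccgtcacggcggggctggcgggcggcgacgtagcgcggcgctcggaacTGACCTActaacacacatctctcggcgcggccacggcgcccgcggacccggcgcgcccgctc

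In the Arntl window TAGGTTA begins 6 bases before the start and TAGGTCA at base 31 after it. In the Nfil3 window the match begins 12 bases before the start. TAGGTCA occurred in 2 of the 10 windows, those of Arntl and Nfil3, and in 2.61% of all 32851 windows in the table. TAGGTTA, in 1.44% of all windows, was found among these genes in Arntl alone, in both of its overlapping windows. AGGTCA was in 16.3% of all windows and in 4 of the 10, those of Arntl, Nfil3, Clock and Nr1d2. A match is a description of letters in a short window and shows neither binding nor a cause.

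Nr1d1, the REV-ERBα gene and an E-box target of CLOCK and BMAL1, had a single probe set and no call in any comparison. Nr1d1 1426464_at read 5.74, 6.01 and 6.19 in untreated wild type, 6.33, 6.21 and 6.22 in treated wild type, 5.96, 6.11 and 6.13 in null and 6.29, 6.06 and 6.10 in Clk/Clk mice. The groups lay within 0.27 of each other by their means, and treated wild type was just above untreated and null mice. The drug difference was 0.27 (SE 0.111, adjusted p = 0.0654). The Clk/Clk difference from treated wild type was -0.10, with a 95% interval of -0.34 to 0.14, which leaves out a 1.5-fold difference in either direction on this probe set. Its group means of 5.98 to 6.25 lay not far above the array medians of 5.45 to 5.5, which limits what it can show about the gene. The null difference was -0.19 (-0.43 to 0.06). In the RefSeq table the span of Nr1d1 overlaps that of Thra, and no source used here gives the strand or exon that the probe set reads.

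Nr1d2, the REV-ERBβ gene, was lower in Clk/Clk livers on its bright probe set. Nr1d2 1416958_at read 9.09, 9.81 and 10.01 in Clk/Clk mice against 10.50, 10.77 and 10.21 in treated wild type, 10.39, 10.49 and 10.52 in null and 10.76, 11.03 and 10.95 in untreated wild type. All Clk/Clk mice were below all other mice, and Clk/Clk mouse 1 was lowest by a wide margin. The difference from treated wild type was -0.85 (SE 0.205, 1.80-fold, adjusted p = 0.0123). It was no longer called once treated wild-type mouse 2 (-0.71) or Clk/Clk mouse 1 (-0.58) was removed, or when only the 6 arrays compared were fitted (-0.85). Leaving out single arrays gave adjusted p from 0.00702 to 0.0502.

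Against untreated wild type the Clk/Clk difference of Nr1d2 on this probe set was -1.27 (SE 0.205, adjusted p = 3.66e-04). The drug difference in wild type was -0.42 (adjusted p = 0.119) and the null difference from treated wild type -0.03 (95% interval -0.48 to 0.42), so neither was called. The dim probe set, Nr1d2 1416959_at, had its group means between 4.53 and 5.14, with Clk/Clk lowest and untreated highest. There the Clk/Clk difference from treated wild type was -0.37 (adjusted p = 0.172), and the ranges overlapped.

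Windows of the REV-ERB genes were searched for the same letters, and also for CACGTG (the E-box), CACGTT (a variant E-box) and TTATGNAA (a D-box form). They are shown because both genes are E-box targets that encode REV-ERB proteins. Whether the Clk/Clk differences of Nr1d1 and Nr1d2 differ from each other was not tested. The Nr1d1 window is chr11:98775328-98775627 and the Nr1d2 window chr14:18239057-18239356, both on the minus strand. Capitals mark CACGTT, read as AACGTG on the opposite strand, in Nr1d1, and AGGTCA in Nr1d2.
Nr1d1: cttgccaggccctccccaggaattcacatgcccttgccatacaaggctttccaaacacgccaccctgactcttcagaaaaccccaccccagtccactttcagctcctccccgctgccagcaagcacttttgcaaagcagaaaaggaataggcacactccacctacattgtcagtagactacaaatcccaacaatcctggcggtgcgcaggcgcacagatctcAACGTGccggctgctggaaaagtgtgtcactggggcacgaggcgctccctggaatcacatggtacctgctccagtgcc
Nr1d2: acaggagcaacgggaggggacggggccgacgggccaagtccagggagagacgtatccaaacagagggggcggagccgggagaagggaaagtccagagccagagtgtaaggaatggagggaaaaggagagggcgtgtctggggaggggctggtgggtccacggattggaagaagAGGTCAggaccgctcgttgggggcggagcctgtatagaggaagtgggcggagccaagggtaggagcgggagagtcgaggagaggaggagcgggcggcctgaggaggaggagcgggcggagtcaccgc

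CACGTT was in the Nr1d1 window, starting 28 bases before the start, and in 4.68% of all windows. AGGTCA began 77 bases before the start in Nr1d2. The E-box letters CACGTG, in 7.15% of all windows, and the D-box letters, in 3.38%, were in none of the 10 windows. No match says only that these letters are not in this short window.

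Rora encodes RORα, the activator that competes with the REV-ERB proteins for RORE sites, and its 9 probe sets did not move together. Rora 1458129_at had the largest differences. It read 7.46, 7.60 and 7.54 in untreated wild type, 6.30, 6.04 and 6.14 in treated wild type, 6.78, 6.46 and 6.37 in null and 5.94, 5.99 and 5.53 in Clk/Clk mice. The groups did not overlap, in the order untreated, null, treated wild type, Clk/Clk.

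The drug difference of Rora 1458129_at in wild type was -1.37 (SE 0.136, 2.59-fold, adjusted p = 1.05e-05). Null and Clk/Clk mice differed from treated wild type by 0.38 (adjusted p = 0.0558) and -0.34 (adjusted p = 0.0956), neither called. From each other they differed by -0.72, Clk/Clk minus null, which was called (adjusted p = 0.00173). Both mutants were called lower than untreated wild type, at -0.997 in null (adjusted p = 6.29e-04) and -1.71 in Clk/Clk (adjusted p = 1.72e-06).

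A further pair of Rora probe sets fell with the drug. Rora 1455165_at read 9.31, 9.71 and 9.75 untreated and 8.83, 8.58 and 8.81 treated, a difference of -0.85 (SE 0.127, adjusted p = 2.27e-04). Rora 1436326_at read 9.49, 9.71 and 9.72 untreated and 9.13, 8.90 and 9.03 treated, a difference of -0.62 (SE 0.102, adjusted p = 4.24e-04). The groups did not overlap on either, and the latter value was -0.56 without treated wild-type mouse 2, under the fold minimum. Null mice read 9.40, 9.33 and 9.22 on 1455165_at and 9.44, 9.25 and 9.08 on 1436326_at, and Clk/Clk mice 9.07, 9.25 and 9.39, and 8.84, 8.85 and 8.87. These probe sets ordered the Clk/Clk mice differently: Clk/Clk minus treated wild type was 0.50 on 1455165_at (adjusted p = 0.0161, under the fold minimum) and -0.17 on 1436326_at (adjusted p = 0.263).

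The brightest, Rora 1424034_at, read 10.07, 10.23 and 10.27 untreated, 9.79, 9.58 and 9.69 in treated wild type, 10.25, 10.19 and 9.98 in null and 9.77, 9.87 and 10.04 in Clk/Clk mice. Its drug difference of -0.50 (adjusted p = 0.00166) and its null difference of 0.45 (adjusted p = 0.00541) were under the fold minimum. Rora 1420583_a_at gave -0.51 for the drug (adjusted p = 0.00673), also under it. The remaining tested probe sets, 1436325_at, 1458145_at and 1424035_at, gave 0.13, 0.26 and -0.14 for the drug, and their differences in the other main comparisons ran from -0.19 to 0.14. Rora 1441085_at ran from 4.53 to 4.91 and was not tested. Of 8 tested Rora probe sets, 3 were thus called lower with the drug, 2 more had adjusted p under 0.05 and a negative sign, and 1458145_at had a positive sign (adjusted p = 0.0285). No source used here gives the Rora isoforms or introns that these probe sets read.

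**Figure D3:**
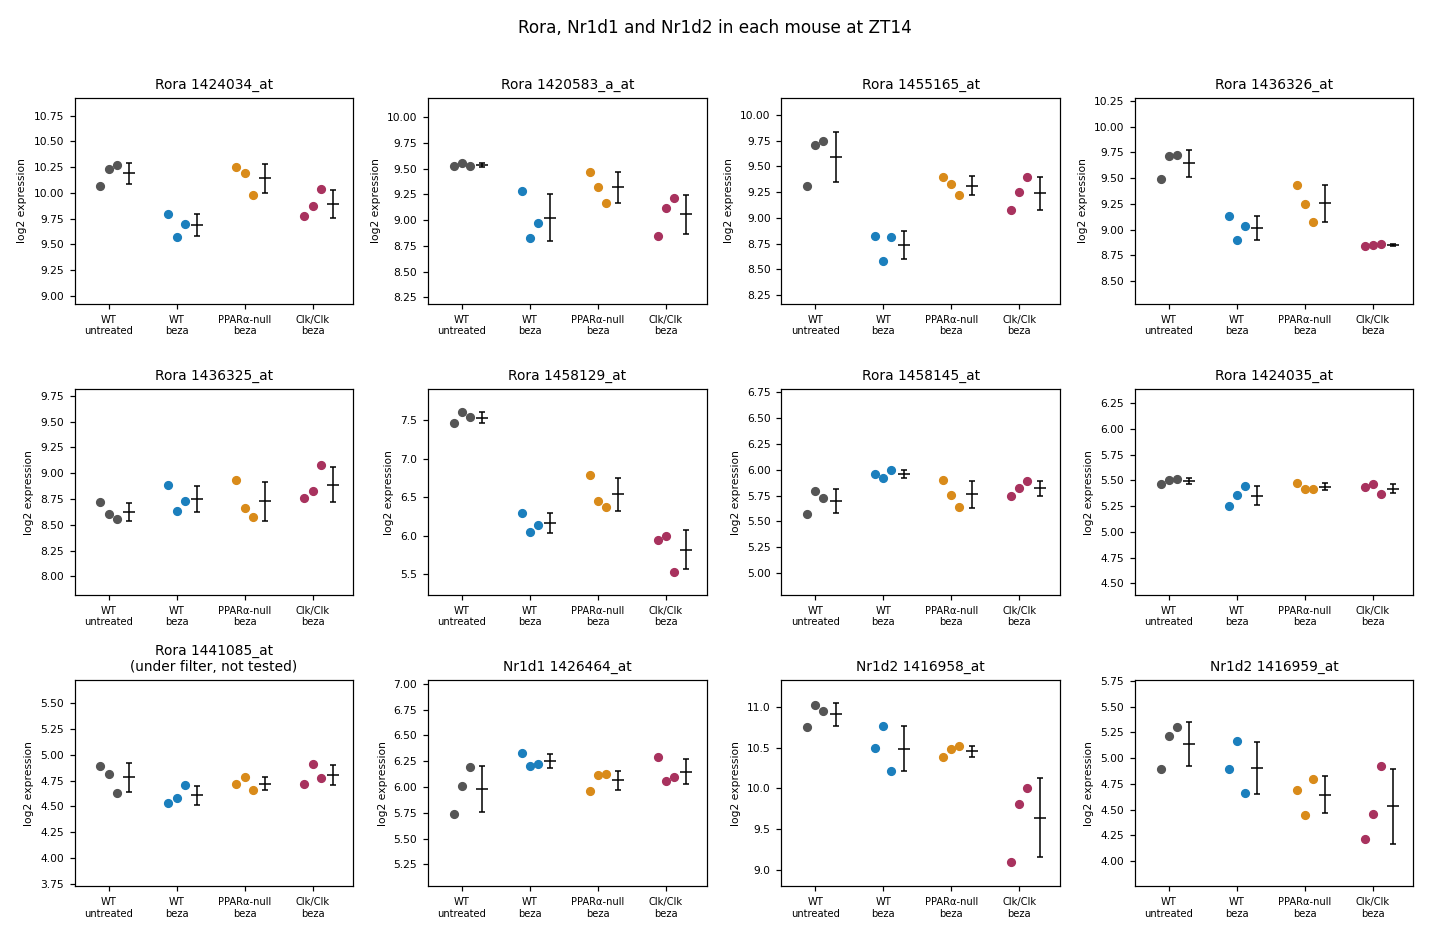
Log2 expression (y axis, a scale of its own in each panel) of each mouse in the 4 groups (x axis) for the probe sets of Rora, Nr1d1 and Nr1d2; bars give mean and SD, n = 3. Untreated mice lie above the other groups on Rora 1458129_at, Clk/Clk mice lie lowest on Nr1d2 1416958_at, and the Nr1d1 panel shows no called difference.

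The remaining comparisons place the treated mutants against each other and against untreated wild type. Clk/Clk against null on the drug gave 6 calls among the 19 probe sets, where 14.5% of all were called: 3 of Clock and Arntl 1425099_a_at higher, Rora 1458129_at and Nr1d2 1416958_at lower. Treated null against untreated wild type gave 1 call, Rora 1458129_at, against a background of 6.69%. The median absolute difference of the 19 there was 0.102, beside 0.157 over all tested probe sets. Treated Clk/Clk against untreated wild type gave 9 calls, 4 higher and 5 lower, against 19.8%. The 4 were the same probe sets that were higher than in null mice, and the 5 were Nfil3, Rora 1458129_at and 1436326_at, and both Nr1d2 probe sets, of which 1416959_at (-0.60, adjusted p = 0.0203) had overlapping ranges. The Clk/Clk mean of Nr1d2 1416959_at, 4.53, lay under the filter level. This probe set passed the filter mainly through wild-type mice, where it was higher, so its call supports nothing.

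Other clock genes were read on the brightest tested probe set of each gene, over which 20.6% of 13598 genes were called for the drug, 13.4% for null and 9.12% for Clk/Clk against treated wild type. The median difference over all those genes was 0.00654, 0.0104 and 0.0205. Among 8 genes of the negative limb, which inhibits CLOCK and BMAL1, 4 fell with the drug (median -0.61), 1 was higher in null mice (median 0.33) and 3 were lower in Clk/Clk mice (median -0.40). The genes that fell with the drug included Cry1 (-1.50, SE 0.164), Per1 (-1.32, SE 0.214) and Cry2 (-0.67, SE 0.113). Those lower in Clk/Clk mice were Per2 (-2.16, SE 0.341), Bhlhe40 (-1.90, SE 0.255) and Per3 (-1.61, SE 0.26). The SE shares a spread over all groups, and the Clk/Clk mice varied more. Their SD was 0.924 for Per2 and 0.7 for Per3, against at most 0.279 and 0.216 in other groups. Cry1, which is driven through both E-box and RORE sites, was 0.80 higher in null mice (adjusted p = 0.00325), and its Clk/Clk difference of 0.52 (adjusted p = 0.0411) was under the fold minimum.

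Among 9 tested PAR bZIP factors and clock outputs, 7 fell with the drug (median -0.99), 4 were higher in null mice (median 0.47) and 5 were lower in Clk/Clk mice (median -0.85). Dbp, a direct E-box target and activator of D-box genes, had means of 11.07 in untreated and 10.08 in treated wild type, 10.22 in null and 5.63 in Clk/Clk mice, a Clk/Clk difference of -4.45 (SE 0.496, adjusted p = 1.72e-04). Its SD among Clk/Clk mice was 1.24, against 0.229 to 0.651 in the other groups. Usp2, a clock-driven ubiquitin protease, was -3.26 in Clk/Clk mice and Tspan4 -2.31. For the drug Upp2, a uridine phosphorylase, was at -1.77, Usp2 at -1.64, Nampt, an enzyme of NAD synthesis, at -1.02 and Hlf, a relative of DBP, at -0.72. Dbp's drug difference of -0.99 was not called (adjusted p = 0.126).

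Among ROR paralogs and REV-ERB corepressor genes 5 were tested. The single call was Nrip1, a nuclear receptor corepressor, lower in null mice (-0.66, SE 0.138, adjusted p = 0.00392). Rorb was dim, with group means of 4.92 to 5.29, and not called. Among 17 tested clock partners and modifiers, the drug gave 2 rises and 2 falls, null mice 1 higher and 1 lower, and Clk/Clk mice 2 lower. Timeless, a replication fork gene, was called in all 3 comparisons, at 2.12, -1.02 and -2.14, whereas Arntl2, the paralog of Arntl, was called in none (0.14, 0.05 and 0.09). Kat2b, an acetyltransferase, fell by 0.63 with the drug, and Tipin, the partner of TIMELESS, was -1.08 in Clk/Clk mice. Fbxl21, an F-box gene, was at -0.64 for the drug and 0.72 in null mice, with treated wild-type and Clk/Clk means under the filter level (4.36 and 4.48). It passed the filter only through the untreated and null groups, where it was higher (means of 5.00 and 5.08), so its counts above, the single higher call in null mice among them, support nothing.

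Among 10 tested output genes of the REV-ERB and ROR loop, 5 were higher and none lower in Clk/Clk mice than in treated wild type (median 0.51). They included Elovl3, a fatty acid elongase (2.18, SE 0.255), Pck1, a gluconeogenic enzyme (2.08, SE 0.345), and Insig2, a brake on sterol synthesis (1.07, SE 0.188). For the drug 2 rose and 5 fell (median -0.61), with Pck1 at -4.66, Cyp7b1, a sterol hydroxylase, at -2.56, Lpin1, a phosphatidate phosphatase, at -2.24 and the hormone gene Fgf21 at 3.21. In null mice 4 were higher and 1 was lower (median 0.71), the last being Fgf21 at -3.88. Fgf21 is also known as a target of PPARα. Higher in Clk/Clk mice here means higher than treated wild type. Pck1 had means of 13.1 in untreated wild type, 8.44 in treated wild type and 10.52 in Clk/Clk mice, thus below untreated. In the same order, Elovl3 (7.68, 8.19 and 10.36) and Insig2 (10.47, 11.37 and 12.45) were above untreated in Clk/Clk mice.

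**Figure D4:**
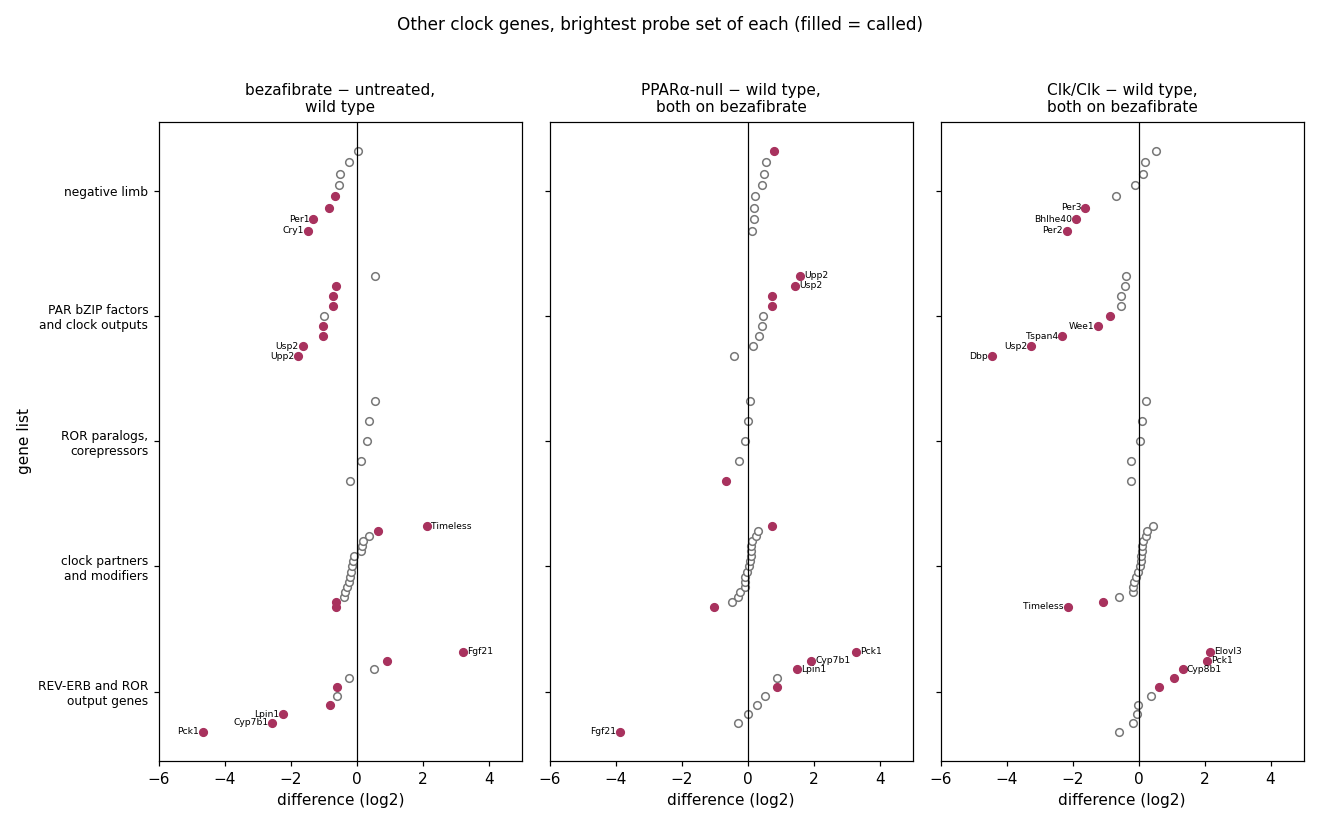
Difference on the log2 scale (x axis) of each tested gene of 5 clock lists (y axis), 1 point per gene, in 3 comparisons. Filled points are called, and the called genes farthest from 0 are named; Dbp at -4.45 lies farthest left in the Clk/Clk panel, and Pck1 at -4.66 in the drug panel.

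Across the 12 mice, the genes most like each member's brightest probe set were ranked by Pearson r over all 13598 genes, as a description. The mice fall into 4 groups, and a shared group pattern gives a high r, so r after removing group means is given beside it. Clock was closest to B3gat3 (r = 0.975, 0.72 without group means), Clpx and Aasdhppt. Arntl was closest to Trim2 (0.964, 0.77), Ddrgk1 and Tab2, and Npas2 to Dnm2 (0.922, 0.74), Cd46 and 1700008J07Rik. Nfil3 was closest to Lonrf3 (0.954, 0.80), Tmem190 and Tle2, and Rora to 9430083A17Rik (0.969, 0.95), Gga1 and Kng1. Nr1d1 was closest to Rab27b (0.903, 0.84), 4930506C21Rik and Nfkb2, and Nr1d2 to Rev1 (0.953, 0.83), Elovl2 and Stk35. None of the members was among the 3 genes closest to another.

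Between the members themselves, Clock and Arntl had r = 0.82 over the 12 mice and 0.41 after removing group means. Clock and Nr1d2 had r = -0.87 (-0.52 without group means), Arntl and Nr1d2 -0.76 (-0.45), and Nfil3 and Rora 0.78 (0.067). Clock and Nfil3 ran the other way, at -0.12 over the mice and 0.70 after removing group means, the highest such value of the 21 pairs. These are values from single pairs of probe sets that share their arrays, with no test.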

How the data were processed

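Livers of 12 mice were measured on 12 arrays, and the deposited values are log2 expression per probe set. Per the submitters' processing notes they were made with RMA, which corrects background, equalises arrays and summarises probes; version and settings are not given in the sources used here. Array medians lay between 5.45 and 5.5. With 3 mice a group, the number of arrays limits the precision, and dim probe sets lie near background.

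Symbols came from the platform's gene table, and none changed when matched by gene identifier to RefSeq (GRCm38.p6). Probe sets that reached the 40th percentile of their array (4.87 to 4.92) on at least 3 arrays were tested. A model of 4 group means was fitted to all 12 arrays (lmFit, eBayes; limma 3.58.1, R 4.3.3), with Benjamini-Hochberg adjustment over 28344 probe sets. The labels do not say whether mice shared litters or batches, so p-values measure the spread between these samples only.

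Named are all member probe sets; from each clock list up to 6 genes called in a main comparison, smallest adjusted p first; and Rorb, Arntl2, Per1, Per2, Per3, Cry1, Cry2 and Dbp. For each member the 3 genes with the highest r are named. Some listed genes are not reported here. The members and lists were chosen with earlier results of these data known. Alternatives covered the filter, normalization, array weights, variance settings, fewer arrays, the replicate block, the choice of probe sets, the fold minimum and leaving out each array.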

Additional observations from a re-analysis of the deposited data

How the results depend on the processing

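Samples that share a replicate number did not deviate together (r of their deviations from -0.0941 to 0.087 over 18 pairs), so the numbers do not pair them. With the replicate number as a block (replicate block) the counts of called member probe sets were 5, 2 and 6 in the 3 main comparisons, as without it, and 6, 1 and 9 in the other comparisons, and it changed no call of a member in the main comparisons. Without a fold minimum the counts were 10 for the drug, 5 for null and 2 for treated null against untreated wild type, since small differences then count. The share of all tested probe sets without that minimum was not computed, so these counts have no background and cannot be judged. The 10 include Npas2 1421036_at, whose drug difference supports nothing. With 1 probe set per gene, which leaves 7 features, the counts were 2 for the drug, 3 for Clk/Clk against null, 0 for treated null and 4 for treated Clk/Clk against untreated wild type (limma; 1 and 9 as reported). For Clk/Clk against treated wild type the count was then 4, with the Clock gene among them. In the main fit, 20.6% of all genes read on 1 probe set were called for the drug. For Clk/Clk against treated wild type the share was 9.12%. The drug count of 2 among 7 therefore says nothing particular about these genes. For the other comparisons named here no such share was computed, so their counts cannot be judged. Without suffix probe sets, which removes Arntl 1425099_a_at, the null count was 1. Leaving out single arrays gave 3 to 6 calls for the drug and 1 to 3 for null; the low ends came without treated wild-type mouse 2 and, for null, also without null mouse 1. Shares over all tested probe sets were not computed with the replicate block, without suffix probe sets or without single arrays. The counts from those fits therefore have no background. Rora 1455165_at passed for null against treated wild type after a second quantile normalization (0.62) and without treated wild-type mouse 1 (0.62) or 3 (0.61) or null mouse 3 (0.62), and Rora 1420583_a_at for the drug without treated wild-type mouse 1 (-0.63). Why these crossed the threshold was not tested. Differences near 0, none called, changed sign in some fits. After a second quantile normalization Clock 1435775_at was at -0.048 for the drug and 0.015 for null, and Rora 1436325_at at 0.023 for null. Leaving out single arrays, the drug differences of Clock 1435775_at ran from -0.077 to 0.077 and of Clock 1439314_at from -0.099 to 0.032. The null differences ran from -0.024 to 0.23 for Clock 1418660_at, -0.12 to 0.050 for Clock 1435775_at, -0.089 to 0.056 for Npas2 1421036_at, -0.13 to 0.052 for Rora 1436325_at and -0.17 to 0.11 for Nr1d2 1416958_at. The Clk/Clk differences ran from -0.033 to 0.25 for Clock 1439314_at and -0.069 to 0.16 for Rora 1420583_a_at. Dim probe sets, such as those of Npas2 and Nr1d2 1416959_at, lie near background, which limits what they can show.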
